A study of Homo sapiens with 4 samples.

Results

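The genes described here are the 7 subunits of the transcription factor AP-1 that the deposited table lists (FOS, FOSB, FOSL1, FOSL2, JUN, JUNB and JUND), together with ATF3, EGR1 and the early response gene IER3. They were chosen by gene symbol and make up 10 of the 35211 genes in the table. RNA was sequenced from the established human prostate cancer cell lines DU145 and PC3, both grown from metastases. Cells of each line carried either a negative control plasmid or a plasmid that overexpresses circ0003553, a circular RNA (the titles of the samples carry the gene name RCAN3). The 4 groups (each line with each plasmid) held 1 library each. All were ribosomal RNA-depleted total RNA from transfected cells, and each plasmid and each line was seen in 2 libraries.

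AP-1 is a dimer of basic leucine zipper proteins. Jun proteins pair with each other or with Fos proteins, and the Fos proteins need a Jun partner to bind DNA. FOS, FOSB, JUN, JUNB, EGR1 and IER3 are classical early response genes, which growth factors and stress switch on within minutes through MAP kinases, while FOSL1 and FOSL2 usually follow later and last longer. ATF3 is a related zipper protein of the ATF/CREB family that is induced by many stresses and can pair with Jun proteins, and EGR1 is a zinc finger factor that binds GC-rich sites. In prostate cancer cells AP-1 and EGR1 are studied for their part in growth, invasion and the response to stress.

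Counts assigned to genes totalled 33438509 to 39488890 per library, and 3 counts corresponded to 0.0760 to 0.0897 CPM (counts scaled to the library total). Of values from 1 to 20 counts, 70.3% to 75.3% were even, so that a read pair appears often to have been counted as 2 and counting intervals are too narrow. Intervals with the counts halved are given beside ratios of low counts or with an interval near 1. Epithelial markers (5 of 5 in the table) summed to 336 to 1184 RPKM (reads scaled to exon length and library total), and all 5 were above 0 in each library. Among them CDH1 was low in PC3, at 0.407 RPKM with the control and 0.443 with the circ0003553 plasmid. In DU145 it had 20.5 and 11 RPKM in the same order. Leukocyte markers (3 of 4 in the table) summed to 0.0999 to 0.419 RPKM, and the pan-leukocyte marker PTPRC had 0 counts in 3 libraries and 2 in the PC3 control library. Fibroblast and smooth muscle markers (4 of 4) summed to 0.982 to 4.42 RPKM and endothelial markers (3 of 3) to 0.0653 to 2.27 RPKM, the upper end of the latter resting on PECAM1 in PC3. Of 7 markers of the luminal prostate 4 were in the table, and they summed to 7.16 to 40.1 RPKM. STAT3, which PC3 is known to lack, had 7479 and 6160 counts in the DU145 libraries and 2 and 6 in the PC3 libraries. In bulk RNA, fewer cells that express a gene and less RNA per cell cannot be told apart.

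The subunit genes were expressed at very unequal levels. FOSL1, the Fos family member also called FRA-1, had the highest RPKM of the 10 genes in every library, at 128 and 178 in DU145 (control plasmid first, then circ0003553) and 314 and 376 in PC3. It lies at 65892049 to 65900573 of chromosome 11 (minus strand, hg38) and had 9221, 12215, 19840 and 28003 counts in the same order. Both PC3 libraries were above both DU145 libraries.

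IER3, which encodes a stress-induced regulator of cell survival, came next at 54.3 and 57.0 RPKM in DU145 (control, then circ0003553) and 191 and 171 RPKM in PC3. It lies at 30743199 to 30744554 of chromosome 6 (minus strand) and has a single exon. IER3 shares 359 exon bases with XXbac-BPG252P9.10 on the other strand, a gene with 722 and 740 counts in DU145, against 2442 and 2435 in PC3, so its own counts may hold reads of that gene. JUN, the founding Jun subunit and a strong activator, lies at 58780788 to 58784327 of chromosome 1 (minus strand) and is a single exon as well. Its level was 18.2 and 44.7 RPKM in DU145 and 48.3 and 47.6 RPKM in PC3, so that the DU145 control library stood below the other 3.

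FOSL2, the Fos family member FRA-2, lies at 28392448 to 28417312 of chromosome 2 (plus strand). It had 19.8 and 16.4 RPKM in DU145 and 6.51 and 8.77 RPKM in PC3, with both DU145 libraries above both PC3 libraries. JUND, the Jun subunit that is often present without stimulation, lies at 18279760 to 18281622 of chromosome 19 (minus strand) and had 11.9 and 12.5 RPKM in DU145 against 6.97 and 7.18 RPKM in PC3. JUNB, a Jun subunit that is a weaker activator than JUN in many settings, lies at 12791496 to 12793315 of chromosome 19 (plus strand). It had 4.07 and 4.66 RPKM in DU145 and 5.49 and 6.15 RPKM in PC3. JUNB shares 259 exon bases with HOOK2 on the other strand, a gene with 2154, 2032, 2114 and 2563 counts, several times the counts of JUNB itself.

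The other 4 genes, ATF3, EGR1, FOS and FOSB, had the lowest levels in both lines. ATF3, at 212565334 to 212620777 of chromosome 1 (plus strand), had 1.11 and 3.41 RPKM in DU145 and 1.29 and 3.57 RPKM in PC3. EGR1, at 138465490 to 138469315 of chromosome 5 (plus strand), had 3.23 and 2.62 RPKM in DU145 and 0.0191 and 0.0968 RPKM in PC3. FOS, the founding Fos subunit, lies at 75278774 to 75282230 of chromosome 14 (plus strand) and had 66 and 40 counts in DU145, against 8 and 18 in PC3, or 0.536, 0.339, 0.0739 and 0.141 RPKM. FOSB, its close relative at 45467995 to 45475179 of chromosome 19 (plus strand), had 8 and 26 counts in DU145, against 52 and 103 in PC3, or 0.0379, 0.128, 0.280 and 0.470 RPKM. The rare Fos subunits thus ran in opposite orders between the lines, FOS higher in DU145 and FOSB higher in PC3.

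By mean RPKM the order in DU145 was FOSL1, IER3, JUN, FOSL2, JUND, JUNB, EGR1, ATF3, FOS and FOSB. In PC3 it was FOSL1, IER3, JUN, FOSL2, JUND, JUNB, ATF3, FOSB, FOS and EGR1. The first 6 places were held by the same genes in both lines. Among neighbours in these orders, the ranges of the 2 libraries of a line overlapped for JUN and FOSL2 and for EGR1 and ATF3 in DU145, and for FOSL2 and JUND and for FOS and EGR1 in PC3. All 10 genes are annotated as protein coding, and 8 of them share no exon base with another gene in the table.

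**Figure D1:**
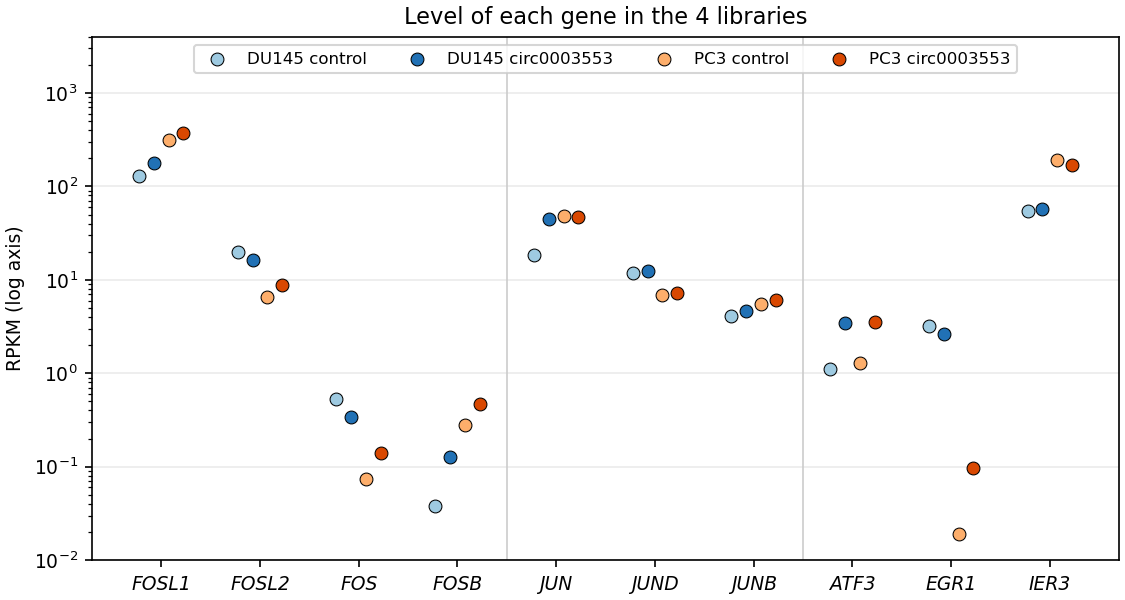
RPKM (log axis) of each of the 10 genes in the 4 libraries, 1 point per library, with Fos subunits on the left, Jun subunits in the middle and ATF3, EGR1 and IER3 on the right. FOSL1 is highest in all libraries, EGR1 spans 0.0191 to 3.23 RPKM between the lines, and ATF3 is higher in both circ0003553 libraries than in both control libraries.

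Summed over the 7 subunits, AP-1 mRNA came to 183 RPKM with the control and 256.2 with the circ0003553 plasmid in DU145, and to 382 and 446 RPKM in PC3. FOSL1 made up 70.2%, 69.3%, 82.3% and 84.2% of that sum in the same order. Its share was 50.5%, 52.0%, 71.0% and 73.2% when CPM, which are not corrected for exon length, were summed instead. FOS and FOSB together held under 1% of the RPKM sum in every library, with FOS at most 0.293% and FOSB at most 0.105%.

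The Jun subunits summed to 34.2 RPKM in the DU145 control and to 61.8, 60.7 and 60.9 RPKM in the other 3 libraries, in which they were nearly level. Their share of all subunits was 18.7% and 24.1% in DU145 and 15.9% and 13.7% in PC3. JUN alone took 9.96% of the subunit sum with the control and 17.4% with the circ0003553 plasmid in DU145, and 12.6% and 10.7% in PC3. FOSL2 took 10.8% and 6.39% in DU145 and 1.71% and 1.97% in PC3. These shares have 1 library per group and describe mRNA, not protein or dimers.

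**Figure D2:**
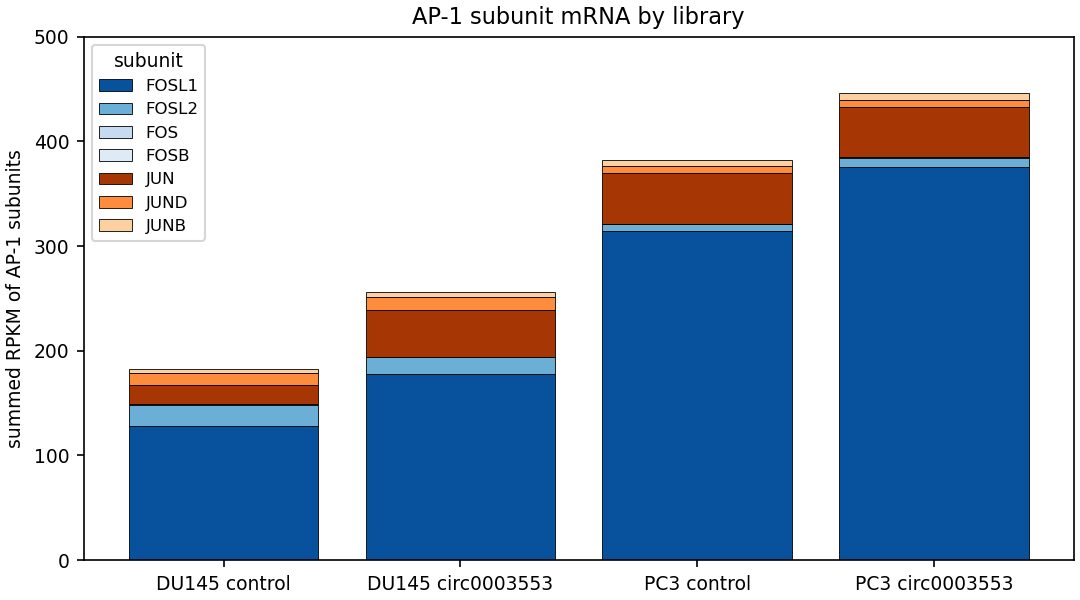
Stacked bars of RPKM summed over the 7 AP-1 subunit genes, 1 bar per library, with Fos subunits in blue and Jun subunits in orange. FOSL1 fills 69.3% to 84.2% of each bar, the orange part is smallest in the DU145 control library at 34.2 RPKM, and FOS and FOSB are too low to be seen.

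The first comparison set the circ0003553 plasmid against the control plasmid over both lines. ATF3 alone of the 10 genes was called, that is, had an adjusted p under 0.05. Its counts rose from 170 to 503 in DU145, and in PC3 from 174 to 570. Both circ0003553 libraries were higher than both control libraries. The share of all genes that separate in this way was not counted. The ratio, scaled for library size by trimmed mean of M-values (TMM), was 3.18 in DU145 (95% interval 2.67 to 3.80) and 2.73 in PC3 (2.30 to 3.25). Over both lines ATF3 rose 2.94-fold, a log2 fold change of 1.56 ± 0.16 (SE, n = 2 libraries per plasmid; adjusted p = 0.000121 from the quasi-likelihood test of edgeR, Benjamini-Hochberg adjusted over 21731 genes). That made 1 of 10 members called higher, where 0.396% of all genes tested were, and 0 called lower, where 0.0690% were. At an unadjusted p under 0.05, 4 members were higher (ATF3, FOSL1, JUN and FOSB), where 4.86% of all genes tested were, and 0 lower, where 4.01% were. DESeq2 and limma-voom also called 1 higher and 0 lower. The median log2 fold change was 0.13 over the 10 genes and 0.003 over all genes tested.

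The cell line was the block in this test, which leaves 1 residual degree of freedom, to which other genes lend a prior of 13.4, and nothing in the labels says that libraries came from separate cultures, so p-values measure only the spread between these samples. The ATF3 call was lost without the filter on low counts (adjusted p = 0.0644, edgeR) and without the cell line in the model, with log2 fold changes of 1.56 and 1.55.

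Short stretches upstream of ATF3, JUN and JUND are shown because they hold the matches to one site of ATF and CREB proteins in the windows searched, including that of the gene that was called. The search covered the 250 bases before each listed RefSeq start (GRCh38.p14, both strands). It took in the 8 members in the promoter table, which were ATF3, FOS, FOSB, FOSL2, JUN, JUNB, JUND and EGR1. Capitals mark the match to TGACNTCA, a pattern that includes the full cAMP response element TGACGTCA:
ATF3: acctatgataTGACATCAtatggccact
JUN: ggccttggggTGACATCAtgggctattt
JUND: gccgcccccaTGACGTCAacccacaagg

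The ATF3 stretch is chr1:212565274-212565301 on the plus strand, with the match at positions -123 to -116 from the first of 2 RefSeq starts. The window before the second ATF3 start held no match to TGACNTCA. The JUN stretch is chr1:58784097-58784124 on the minus strand, with the match at -67 to -60 from the RefSeq start, and it falls inside the exon that the deposited table gives JUN, whose start lies further upstream. The JUND stretch is chr19:18281805-18281832 on the minus strand, with the match at -200 to -193, and it is the full element. TGACNTCA was found in 3 of 8 members and in 7.09% of 27305 RefSeq promoters, and TGACGTCA in 1 of 8 members and in 1.77%. The AP-1 site TGANTCA, in which a single base lies between the arms, was found in 0 of the 8 members and in 6.6% of all promoters. The shares of all promoters took a single window per gene, while both ATF3 windows were searched. A match is a description of the letters, and only ATF3 of the 3 genes was called: the fitted log2 fold change of JUND was 0.06 ± 0.12 (adjusted p = 0.942, edgeR).

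The ratio of JUN was well above 1 in DU145 and near 1 in PC3. Counts in DU145 were 2456 with the control and 5770 with the circ0003553 plasmid, a ratio of 2.52 (95% interval 2.41 to 2.65). Counts in PC3 were 5716 and 6656, for a scaled ratio of 0.970 (0.936 to 1.005). The circ0003553 library of DU145 thus came near the level of the PC3 libraries but stayed below it, at 44.7 RPKM against 48.3 and 47.6. The fit over both lines gave 0.64 ± 0.21 and was not called (adjusted p = 0.346, edgeR). A difference of the plasmid effect between lines cannot be tested with 1 library per group, since an interaction would leave no residual degrees of freedom.

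The other Jun genes had ratios near 1. JUNB had 282 and 309 counts in DU145, against 334 and 442 in PC3, and ratios of 1.18 (0.998 to 1.39) and 1.10 (0.954 to 1.27). JUND had 845 and 846 counts in DU145, against 434 and 528 in PC3, and ratios of 1.08 (0.976 to 1.18) and 1.01 (0.891 to 1.15). All 4 intervals held 1. The fitted changes plus or minus 2 SE ran from -0.11 to 0.49 for JUNB and from -0.18 to 0.31 for JUND on the log2 scale.

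Of the Fos genes, FOSL1 and FOSB were higher with circ0003553 in both lines without passing the test. FOSL1 went from 9221 to 12215 counts in DU145, a ratio of 1.42 (1.38 to 1.46), and from 19840 to 28003 in PC3, a ratio of 1.18 (1.15 to 1.20). The fit over both lines gave 0.37 ± 0.10 (adjusted p = 0.223, edgeR). FOSB went from 8 to 26 counts in DU145, a ratio of 3.49 (1.53 to 8.92, and 1.08 to 14.7 with counts halved), and from 52 to 103 in PC3, a ratio of 1.65 (1.17 to 2.35, and 1.02 to 2.78 with counts halved). Its fitted change was 0.94 ± 0.36 (adjusted p = 0.441, edgeR), with the control libraries of both lines below their circ0003553 partners but the DU145 circ0003553 library below the PC3 control.

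FOSL2 and FOS had ratios on opposite sides of 1 in the lines, and neither passed the test over both. FOSL2 in DU145 had 5385 counts with the control and 4273 with the circ0003553 plasmid, a ratio of 0.852 (0.818 to 0.887), but 1559 and 2480 in PC3, a ratio of 1.32 (1.24 to 1.41). FOS had ratios of 0.651 (0.428 to 0.979) in DU145 and 1.87 (0.775 to 4.98) in PC3, and with counts halved both intervals held 1 (0.354 to 1.17 and 0.523 to 8.33). The fitted change of FOS plus or minus 2 SE ran from -1.10 to 0.55 on the log2 scale, a wide range at these low counts. The fits gave 0.08 ± 0.13 for FOSL2 and -0.27 ± 0.41 for FOS (adjusted p = 0.928 and 0.918, edgeR).

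EGR1 went from 386 to 300 counts in DU145, a ratio of 0.835 (0.715 to 0.973, and 0.669 to 1.04 with counts halved). In PC3 it went from 2 to 12 counts, a ratio of 5.0 (1.11 to 46.0, and 0.606 to 229.9 with counts halved). The fitted change over both lines was -0.15 ± 0.24 (adjusted p = 0.927, edgeR). IER3 had 2802 and 2820 counts in DU145, against 8681 and 9166 in PC3, which scaled to ratios of 1.08 (1.03 to 1.14, and 1.002 to 1.16 with counts halved) and 0.879 (0.854 to 0.906), and its fitted change was -0.04 ± 0.10 (adjusted p = 0.959, edgeR). IER3 had the smallest SE of the 10 genes in this fit, and plus or minus 2 SE reached from -0.25 to 0.17.

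Within single lines, 2 of the 9 members with at least 50 counts in DU145 were at least 2-fold higher (ATF3 and JUN), where 1.16% of 17650 genes were, and 0 were at least 2-fold lower, where also 1.16% were. In PC3, 1 of 8 members (ATF3) was at least 2-fold higher, where 0.968% of 17363 genes were, and 0 were at least 2-fold lower, where 0.415% were. Over the 10 genes, 5 were higher with circ0003553 in both lines (ATF3, FOSB, FOSL1, JUNB and JUND) and 0 lower in both. The other 5 had ratios on opposite sides of 1 (FOS, FOSL2, JUN, EGR1 and IER3). The intervals of JUNB and JUND held 1 in both lines. The shares of all genes with these directions were not counted, so the directions are a description only. The within-line ratios have no replicate and their intervals cover counting error only.

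**Figure D3:**
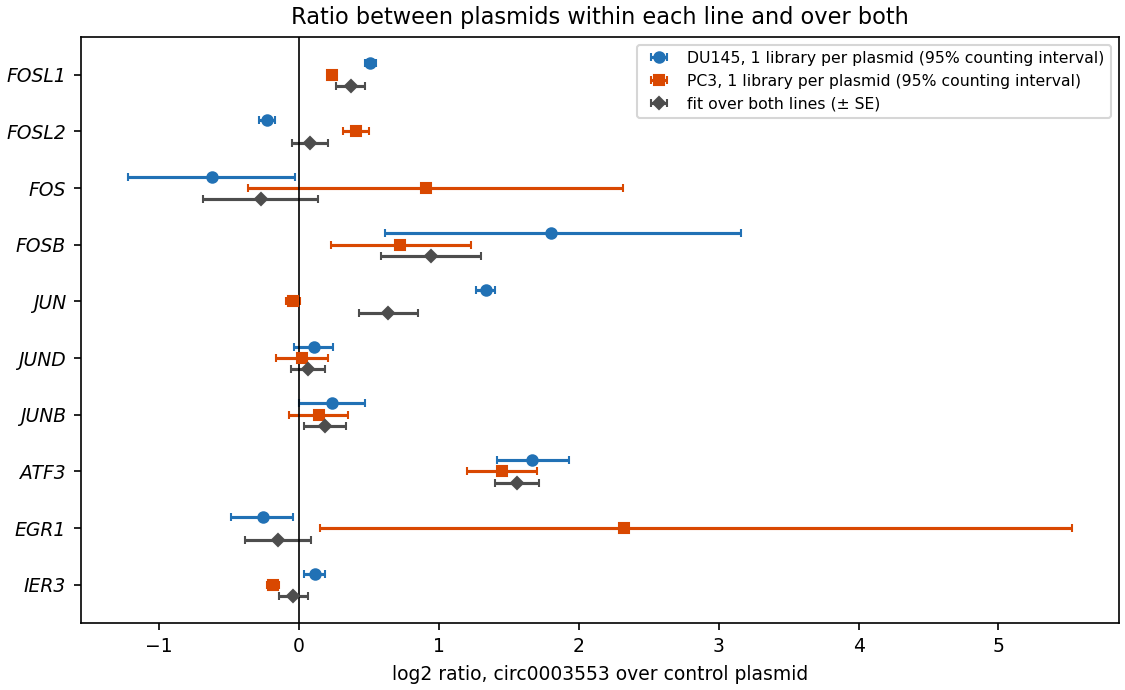
log2 ratio of circ0003553 over control plasmid for each gene in DU145 (circles) and PC3 (squares), 1 library per plasmid with 95% counting intervals, and the fit over both lines (diamonds, ± SE). ATF3 lies at 1.67 and 1.45 in the lines, while the JUN values of 1.34 and -0.04 lie far apart.

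Other genes of the pathway were read from 6 lists, which held 125 tested genes, of which 6 were called higher and 0 lower with circ0003553, beside 0.396% and 0.0690% of all genes tested. At an unadjusted p under 0.05, 37 were higher and 1 lower, beside 4.86% and 4.01% of all genes. By list, the unadjusted counts were 11 higher and 1 lower of 32 other early response genes, 10 of 15 integrated stress response genes, 7 of 20 AP-1 targets, 5 of 22 zipper partners, 4 of 27 kinases and SRF cofactors and 2 of 13 EGR1 targets, with 0 lower in these last 5 lists. The lists were chosen with earlier results known, and their genes are not independent of each other. DESeq2 called 3 higher and 0 lower, and limma-voom called 0. The 32 other early response genes had a median log2 fold change of 0.30, against 0.003 over all genes. Their median log2 ratio was 0.45 in DU145 and 0.13 in PC3. Of these 32 genes 3 were called higher by edgeR. They were KLF4, a zinc finger factor (188 to 317 counts in DU145, 204 to 493 in PC3; 1.91-fold, adjusted p = 0.0146, edgeR), PHLDA1, an early gene linked to cell survival (3942 to 5946 and 8025 to 14018; 1.53-fold, 0.0075), and MCL1, an inhibitor of apoptosis (10241 to 13782 and 2495 to 4001; 1.39-fold, 0.0459). IER5L had the largest fall by value in this list, from 422 to 134 counts in DU145, where PC3 went from 38 to 84, and was not called (log2 fold change -0.79 ± 0.36, adjusted p = 0.537, edgeR).

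Of 22 zipper proteins that can pair with AP-1 or ATF proteins, CREB5 rose, from 185 to 458 counts in DU145, and in PC3 from 571 to 1014 (log2 fold change 0.93 ± 0.17, adjusted p = 0.0256, edgeR). BATF2 had 134 and 215 counts in DU145, against 33 and 63 in PC3, and was not called (0.75 ± 0.24, adjusted p = 0.322, edgeR). The median of that list was 0.11. Of 15 genes of the integrated stress response, the pathway through ATF4 that is known to induce ATF3, PPP1R15A rose from 6215 to 17523 counts in DU145, and in PC3 from 9975 to 16310 (1.02 ± 0.18, adjusted p = 0.0202, edgeR). PPP1R15A encodes a regulatory subunit of the phosphatase that restores translation after stress. ATF4 itself was at 0.27 ± 0.10 (adjusted p = 0.386, edgeR) and ASNS, an ATF4 target, at 0.65 ± 0.19 (adjusted p = 0.259, edgeR). The log2 ratio of ASNS was 1.14 in DU145 and 0.02 in PC3. The list's median was 0.41 in the fit, and its median log2 ratio was 0.52 in DU145 and 0.23 in PC3.

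Of 20 AP-1 target genes, MMP1, a collagenase whose promoter carries a known AP-1 site, rose from 166 to 784 counts in DU145 and stood at 48 and 68 counts in PC3 (1.79 ± 0.32, adjusted p = 0.0174, edgeR). EDN1, which encodes endothelin, had the next largest change among genes with a mean log2 CPM of 1 or more, 0.73 ± 0.26 (adjusted p = 0.409), and the list's median was 0.15. Among 13 EGR1 target genes 0 were called in either direction by edgeR, DESeq2 or limma-voom, with PDGFA at 0.51 ± 0.19 (adjusted p = 0.435) and HPSE at -0.38 ± 0.20 (adjusted p = 0.624), a median of -0.02. Among 27 upstream kinases and cofactors of the serum response factor SRF 0 were called by edgeR, DESeq2 or limma-voom. MAP2K3, a kinase of the p38 branch, had the largest fitted change there among genes with a mean log2 CPM of 1 or more, at 0.56 ± 0.13 (adjusted p = 0.0858), followed by ELK3, a partner of SRF, at 0.32 ± 0.11 (adjusted p = 0.364). DESeq2 kept the calls of PHLDA1 and MCL1 (adjusted p = 3.28e-05 and 0.00385) and lost those of KLF4 (0.285), CREB5 (0.441), MMP1 and PPP1R15A (both 1), and limma-voom lost all 6. With counts halved, edgeR lost the calls of CREB5, MCL1 and PPP1R15A. Legacy dispersions lost these and MMP1. Leaving out the filter on low counts, or the cell line, lost all 6.

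The second comparison set the lines against each other in the same fit. Of the 10 genes 9 were called between PC3 and DU145, ATF3 being the exception, and EGR1 differed most. In PC3, 5 were higher (FOSB, IER3, FOSL1, JUN and JUNB), where 33.1% of all genes tested were, and 4 were lower (EGR1, FOS, FOSL2 and JUND), where 32.8% were. The 9 of 10 stand beside 65.9% of all genes called in one direction or the other. The median size of the log2 fold change was 1.22 over the 10 genes and 0.75 over all genes tested. Each line gave 1 library per plasmid, and a difference between lines cannot be told apart from one between cultures or their handling.

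EGR1 counts were 386 and 300 in the DU145 libraries, against 2 and 12 in the PC3 libraries. Every DU145 library was far above every PC3 library. DU145 was 158-fold above PC3 with the control plasmid (95% interval 43.4 to 1308, and 28.3 to 6324 with counts halved) and 26.4-fold above it with the circ0003553 plasmid (14.9 to 51.6, and 11.9 to 73.6 with counts halved). Over both plasmids the difference of PC3 from DU145 was -5.48 ± 0.32 on the log2 scale (n = 2 libraries per line; adjusted p = 1.5e-09, edgeR), or 44.6-fold lower in PC3. The PC3 control value of 2 counts lies under the floor of 3 counts.

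The stretch before the EGR1 start is shown because EGR1 is the gene that differed most between the lines. It is chr5:138465229-138465478 on the plus strand, the 250 bases before the RefSeq start (GRCh38.p14). Capitals mark a match to GCGNGGGCG, the site of EGR proteins, at positions -198 to -190 from the start, and a pair of CArG boxes, the sites of SRF, at -105 to -96 and -83 to -74:
EGR1: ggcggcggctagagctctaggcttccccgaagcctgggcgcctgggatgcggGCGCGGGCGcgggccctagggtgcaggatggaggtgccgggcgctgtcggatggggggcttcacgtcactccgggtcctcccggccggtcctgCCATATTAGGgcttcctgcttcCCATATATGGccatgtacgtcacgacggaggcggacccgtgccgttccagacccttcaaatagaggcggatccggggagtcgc

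A CArG box was found in EGR1 alone of the 8 members and in 1.14% of all promoters, and the EGR site in EGR1 alone of the members and in 8.25%. SRF itself was at 1850 and 2191 counts in DU145, against 1366 and 1849 in PC3, a log2 difference of -0.24 ± 0.10 that was not called (adjusted p = 0.06, edgeR). Its partner ELK1 was higher in PC3, at 744 and 741 counts in DU145, against 870 and 992 in PC3 (0.43 ± 0.12, adjusted p = 0.005, edgeR). EGR2, a close relative of EGR1, ran the other way from EGR1, with 10 and 8 counts in DU145, against 113 and 150 in PC3 (3.94 ± 0.37, adjusted p = 2.36e-07, edgeR). EGR3 had 4, 0, 2 and 2 counts and was not tested.

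IER3 was 3.79-fold higher in PC3 with the control plasmid (3.63 to 3.96) and 3.08-fold higher with circ0003553 (2.95 to 3.22), and the fit gave 1.77 ± 0.11 (adjusted p = 1.63e-09, edgeR). The overlapping gene on the other strand was higher in PC3 as well, and how much of the IER3 difference it carries was not tested. FOSL1 was 2.63-fold (2.57 to 2.70) and 2.17-fold (2.13 to 2.22) higher in PC3, and the fit gave 1.26 ± 0.11 (adjusted p = 7.08e-08, edgeR). FOSB was 7.95-fold (3.75 to 19.4, and 2.73 to 31.1 with counts halved) and 3.76-fold (2.42 to 6.02, and 2.02 to 7.53 with counts halved) higher, with a fit of 2.25 ± 0.38 (adjusted p = 0.000102, edgeR). For these genes both PC3 libraries were above both DU145 libraries. The share of all genes that separate in this way was not counted, but 65.9% of all genes tested were called between the lines.

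FOSL2 was 2.82-fold (2.67 to 2.99) and 1.82-fold (1.73 to 1.91) higher in DU145, and the fit of PC3 over DU145 gave -1.18 ± 0.13 (adjusted p = 1.45e-06, edgeR). JUND was 1.59-fold (1.42 to 1.79) and 1.69-fold (1.51 to 1.89) higher in DU145, with a fit of -0.71 ± 0.12 (adjusted p = 0.000135, edgeR). FOS was 6.75-fold (3.23 to 16.3, and 2.42 to 26.5 with counts halved) and 2.34-fold (1.31 to 4.34, and 1.03 to 5.89 with counts halved) higher in DU145, with a fit of -1.89 ± 0.45 (adjusted p = 0.00172, edgeR). For each of them both DU145 libraries were above both PC3 libraries, where again the share of all genes that separate was not counted. The FOS call was lost with DESeq2 (adjusted p = 0.086).

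JUN gave unlike ratios between the lines in the single libraries of each plasmid, a contrast that cannot be tested here. With the control plasmid it was 2.85-fold higher in PC3 (2.71 to 2.99), and with circ0003553 it was 1.09-fold higher (1.06 to 1.13, and 1.03 to 1.14 with counts halved). The fit over both gave 0.81 ± 0.21 (adjusted p = 0.00335, edgeR), a call that DESeq2 (0.316), no filter on low counts (0.0754) and leaving the plasmid out of the model (0.100) did not make. JUNB was 1.45-fold (1.23 to 1.70, and 1.14 to 1.81 with counts halved) and 1.36-fold (1.17 to 1.57, and 1.09 to 1.66 with counts halved) higher in PC3, with a fit of 0.49 ± 0.15 (adjusted p = 0.0104, edgeR) that DESeq2 did not call (0.152). JUNB shares exon bases with HOOK2, so reads of that gene may be in both of its levels. ATF3 was 1.25-fold (1.01 to 1.56, and 0.909 to 1.69 with counts halved) and 1.07-fold (0.951 to 1.21) higher in PC3, with a fit of 0.19 ± 0.16 (adjusted p = 0.294, edgeR).

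**Figure D4:**
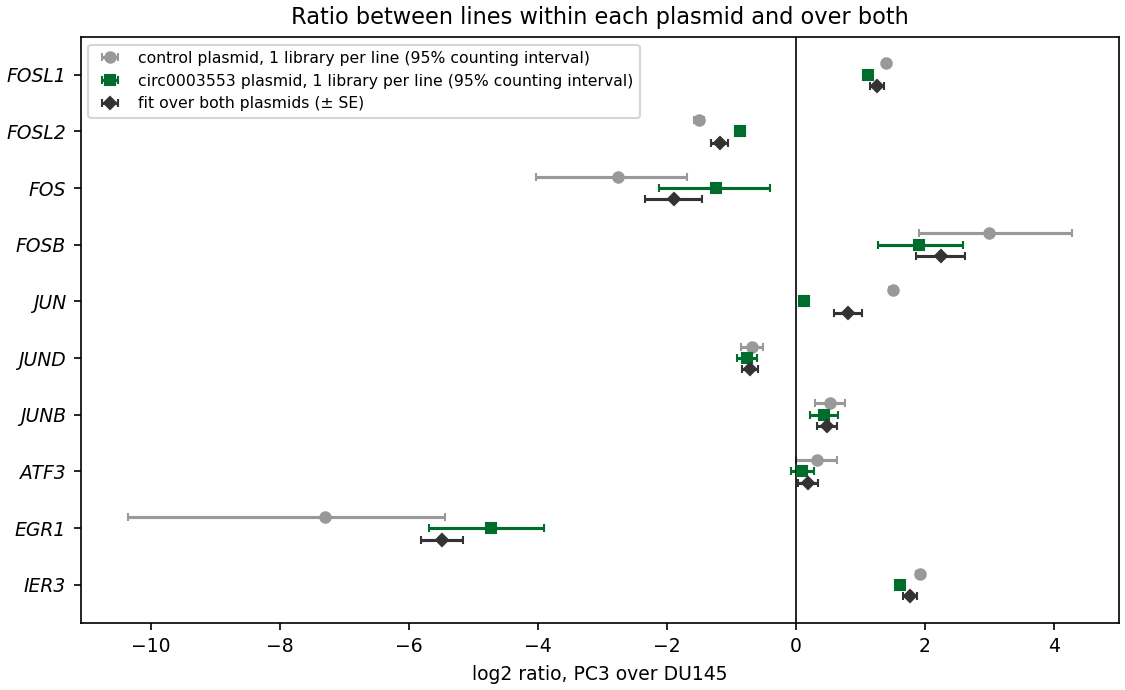
log2 ratio of PC3 over DU145 for each gene with the control plasmid (circles) and the circ0003553 plasmid (squares), 1 library per line with 95% counting intervals, and the fit over both plasmids (diamonds, ± SE). EGR1 lies far to the left at a fitted -5.48, ATF3 lies near 0, and the JUN values of the plasmids are 2.85-fold and 1.09-fold.

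Most genes of the 6 lists differed between the lines, as did 65.9% of all genes tested. Higher and lower in PC3 were 16 and 14 of 32 other early response genes, 7 and 6 of 22 zipper partners, 8 and 6 of 20 AP-1 targets, 3 and 7 of 13 EGR1 targets, 7 and 12 of 27 kinases and SRF cofactors and 2 and 7 of 15 stress response genes. The EGR1 target list, whose median log2 difference was -0.72 against 0.001 over all genes, holds F3, which starts blood clotting (-3.57 ± 0.13, adjusted p = 7.82e-12, edgeR). NAB1 and NAB2, corepressors that bind EGR proteins, were higher in PC3, at 0.84 ± 0.10 and 0.37 ± 0.12 (adjusted p = 4.12e-06 and 0.0144, edgeR). F3, NAB1, NAB2, EGR2, EGR3, SRF, ELK1 and ATF4 are named for their tie to a member, with their values already seen.

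Across the 4 libraries, the genes whose pattern was most like that of ATF3, by Euclidean distance of centred log2 CPM among 14993 genes, were IRF9 at a distance of 0.177 (499, 1564, 571 and 1584 counts), PMAIP1 at 0.385 (693, 1979, 611 and 2883) and IFIH1 at 0.434 (296, 581, 221 and 787). IRF9 is a subunit of the interferon-activated factor ISGF3, PMAIP1 encodes the apoptosis factor NOXA and IFIH1 is a sensor of double-stranded RNA. The nearest to EGR1 were ADAP2 at 0.385 (249, 245, 1 and 11 counts), MUC1 at 0.612 (2510, 1480, 30 and 72) and HLA-DRB1 at 0.614 (270, 200, 0 and 4). The nearest to FOS were ALDH3B1 at 0.170 (2227, 1317, 318 and 568), STAT4 at 0.223 (200, 120, 22 and 52) and CXCL16 at 0.283 (246, 162, 36 and 93). Each pattern rests on 4 values, and likeness over so few libraries is a description.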

How the data were processed

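RNA was extracted with TRIzol, treated with DNase I, depleted of ribosomal RNA and made into stranded libraries with 8-base molecular identifiers, per the labels' protocols. The build hg38, edgeR 3.12.1, Subread 1.5.1, featureCounts and Trimmomatic 0.36 are listed, with no role or order, in the submitters' processing notes. Not given in the sources used here are the aligner, the strand setting and any collapsing by identifier. Gene counts in whole numbers and RPKM values are what the authors deposited. The deposited RPKM equalled counts divided by exon length and library total to within a relative difference of 1e-09. Columns carrying NC were matched to the negative control and those carrying RCAN3 to the overexpression plasmid.

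Plasmids and lines were compared in 1 additive fit by the quasi-likelihood test of edgeR 4.0.16 in R 4.3.3, with TMM scaling, filtering by plasmid and Benjamini-Hochberg adjustment at 0.05. Libraries were paired by cell line, which the labels give. Each SE was taken from the test (fitted log2 change over the root of F). Ratios between 2 libraries carry 95% exact conditional binomial (Clopper-Pearson) intervals (SciPy 1.17.1), which cover counting error only. The fit was tested on simulated data. Alternatives were DESeq2 1.42.0, limma-voom (limma 3.58.1), legacy dispersions, other scaling, no filter, halved counts, only genes sharing no exon base, and no line or plasmid term. Promoter sequences are from RefSeq. Some genes of the lists are not reported here.

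The members and lists were chosen with earlier results of these data known. Besides the members, the genes named by rule were the called genes of each list, the 2 largest fitted changes in each list among genes whose mean log2 CPM was 1 or more, and the 3 genes nearest in pattern to ATF3, EGR1 and FOS.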

Additional observations from a re-analysis of the deposited data

Results flagged for a closer look

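For 5 of the 10 genes the single circ0003553 library stood on one side of its control in DU145 and on the other side in PC3. The share of all genes for which this holds was not counted. The difference between the lines was not tested, since 1 library per group leaves no spread. The log2 ratio of JUN was 1.34 in DU145 and -0.0445 in PC3. For FOSL2 it was -0.23 in DU145 and 0.41 in PC3, and for IER3 it was 0.11 and -0.19. For FOS it was -0.62 and 0.91, and for EGR1 -0.26 and 2.32, where the PC3 libraries held 26 and 14 counts in all for FOS and EGR1. With counts halved, the counting intervals of JUN in DU145, of FOSL2 in both lines and of IER3 in both lines left out a ratio of 1, and those of FOS and EGR1 held it in both lines.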

How the results depend on the processing

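Of the 10 genes, 1 was called higher with circ0003553, and 0 were without a filter on low counts and with no replicate block (the cell line left out of the pairing), where edgeR called 0 of all genes, against 101 with the block, and 26 genes had an unadjusted p under 0.05, 1 of them a member. All calls between plasmids numbered 63 with DESeq2, 26 with limma-voom, 53 with legacy dispersions, 9 without a filter and 48 among genes sharing no exon base. ATF3 stayed called under the other 7 alternatives, with adjusted p of 3.18e-05 to 0.0273. The fitted change turned to 0.0847 for FOS and 0.58 for EGR1 with DESeq2, and to -0.0356 for FOSL2 with no replicate block; none of these was called, and the cause was not tested. Members higher in PC3 numbered 3 in place of 5 with DESeq2, and 3 among genes sharing no exon base, where JUNB and IER3 were not tested; calls between lines there fell from 14331 to 7040 with fewer genes tested. The CPM shares of FOSL1 (50.5%, 52.0%, 71.0% and 73.2%) stand beside the RPKM shares. Of the list genes 3 in place of 6 were called with DESeq2. With 1 line alone ATF3 had log2 ratios of 1.45 (without DU145) and 1.67 (without PC3), with no test. The low counts of FOS, FOSB and EGR1 in one line limit what can be said of their change.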

Other observations

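Among the zipper proteins that can pair with Jun or compete for its sites, JDP2 and CREM were picked after their large differences between the lines were seen. BACH2 also differed, with 20 counts in each DU145 library, against 276 and 426 in PC3. Its log2 difference was 4.20 ± 0.25 (adjusted p = 1.72e-09, edgeR). JDP2, which represses AP-1 targets as a dimer with JUN, had 2921 and 3299 counts in the DU145 control and circ0003553 libraries and 124 and 122 in the PC3 libraries, a log2 difference of -4.55 ± 0.15 (adjusted p = 2.19e-12, edgeR's quasi-likelihood test). CREM, a modulator of cAMP response elements, had 323 and 313 counts in DU145, against 2829 and 3472 in PC3, a log2 difference of 3.41 ± 0.12 (adjusted p = 3.14e-12). Between plasmids the log2 fold changes were 0.11 ± 0.14 for JDP2 and 0.04 ± 0.11 for CREM (adjusted p = 0.9 and 0.959), and neither was called.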
